A study of Ovis aries with 16 samples.

Results

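The rare predicted miRNAs of the sheep testis were taken as the predicted miRNAs whose level, averaged over all 16 libraries, was below 100 CPM (counts per 1000000 miRNA reads of the library), without the predicted miRNA numbered 83. This gave 91 of the 168 predicted and 271 listed miRNAs. Their level was the measured value that chose them. The one left out, candidate-miR-83 (miR-345), is as rare, at 29.1 CPM, and is described beside the members where it bears on a count. Small RNAs were sequenced from the testes of Merino males that were 24 months old at entry and were kept on a high or a low allowance of feed for 65 days. The 8 well-fed males were fed to gain 10% of body mass and the 8 underfed males to lose 10%. Each library held the whole testis tissue sampled, so that fewer cells of a type and less RNA per cell cannot be told apart. Predicted miRNAs are written here as candidate-miR with the number the authors gave them.

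A miRNA is cut from a hairpin precursor and, loaded into an Argonaute protein, directs the repression of messenger RNAs that pair with its seed. A predicted miRNA is a sequence that has no entry for the species in the reference database but whose reads stack on a genomic hairpin in the way that Dicer products do. Some predictions match a miRNA of another animal, which is then called the homologue, and others match none. Predictions with few reads rest on the thinnest evidence, and in testis the many germ cell stages, Sertoli cells, Leydig cells and vessels all contribute RNA to the same library. No sequence of these miRNAs was used here.

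Read depth set what could be seen of these miRNAs. In 13 libraries, 7 well-fed and 6 underfed, 149142 to 1058985 miRNA reads were recovered, and 1 read was worth 0.944 to 6.71 CPM. In the other 3, well-fed 5, underfed 6 and underfed 8, there were 17163, 27797 and 50099 miRNA reads, and 1 read was worth 58.3, 36.0 and 19.96 CPM. Of the 91 members, 64, 68 and 43 were at 0 in these 3 libraries, compared with 1 to 17 in the 13 deep libraries. Zeros in the 3 shallow libraries were therefore treated as undetermined, and the comparison of the diets was made on the 13 deep libraries. Depth differed between the diets within these 13. The well-fed held 187697 to 503916 reads. Underfed 1 and 5 held 149142 and 343066, and underfed 2, 3, 4 and 7 held 721827 to 1058985. In these deeper underfed libraries 1 read was worth 0.944 to 1.39 CPM, and in the well-fed 1.98 to 5.33 CPM. In well-fed 3 and underfed 1 a single read exceeded 5 CPM, the limit of the filter used below. The part of depth in the differences between diets was not tested. Among the 13 deep libraries, underfed 1 stood apart. It was the shallowest of the 13, its scaling factor (trimmed mean of M-values, TMM) was 1.25 against 0.695 to 0.855 in the other 5 underfed libraries and 1.07 to 1.38 in the well-fed, and its share of candidate-miR-31, the homologue of miR-34c, which is abundant in meiotic and later germ cells, was 3.56% against 0.748% to 1.60% in the other 5 and 3.35% to 5.41% in the well-fed. Of the shallow underfed libraries, underfed 8, with a share of candidate-miR-31 of 4.29%, lay within the well-fed range too, and underfed 6, at 1.47%, did not. Where leaving out underfed 1 changed a call, both values are given.

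**Figure D1:**
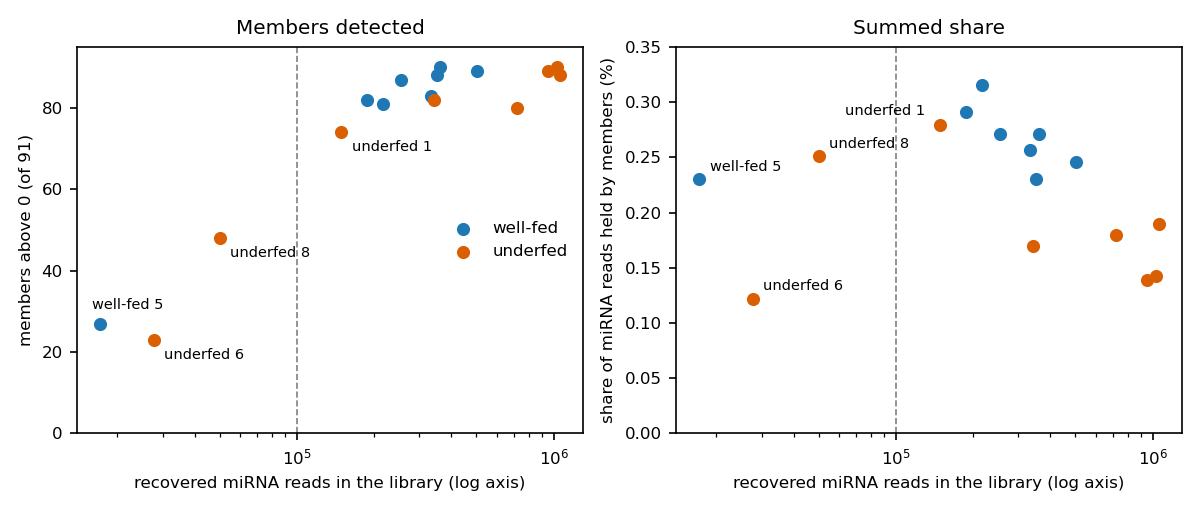
Detection and summed share of the 91 rare predicted miRNAs in each of 16 libraries, against the miRNA reads recovered (log axis; dashed line at 100000 reads). The left panel shows the number of members above 0, which was 23 to 48 in the 3 shallow libraries and 74 to 90 in the others, and the right panel shows their summed share of miRNA reads, which was 0.230% to 0.316% in the 7 deep well-fed libraries and 0.139% to 0.279% in the 6 deep underfed ones.

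The 91 members held 13112 recovered reads in all 16 libraries, compared with 1082623 for the 76 predicted miRNAs at 100 CPM or more. Their median level was 15 CPM. There were 12 with a mean below 5 CPM, 20 from 5 to 10 CPM, 23 from 10 to 20 CPM, 22 from 20 to 50 CPM and 14 from 50 to 100 CPM. Together they made up 0.269% ± 0.0285 (SD, n = 7) of the miRNA reads of well-fed males. In underfed males they made up 0.184% ± 0.0510 (SD, n = 6), a difference of -0.0853 percentage points, for which no test was made because the members were chosen by level. Underfed 1, at 0.279%, lay among the well-fed libraries, and the other 5 underfed libraries, at 0.139% to 0.190%, lay below all 7. This share is relative to the other miRNAs of the library and does not measure the amount of RNA per testis.

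Of the 91 members, 56 had reads in all 13 deep libraries and the rest in 9 to 12. Just inside the limit of 100 CPM were candidate-miR-39 (homologue of miR-215, a p53-responsive relative of miR-192) at 86.3 CPM, candidate-miR-108 (miR-195, of the miR-15/miR-16 family) at 92.9 CPM and candidate-miR-149 (miR-767) at 94.4 CPM. Just outside it were candidate-miR-97 (miR-18a) at 101 CPM, candidate-miR-151 at 104 CPM and candidate-miR-38 at 113 CPM. At the other end, the 5 lowest means were those of candidate-miR-78 (miR-873) at 2.96 CPM, candidate-miR-189 at 3.14 CPM, candidate-miR-155 at 3.35 CPM, candidate-miR-131 (miR-615, hosted in the HoxC cluster) at 3.39 CPM and candidate-miR-68 at 3.75 CPM. These 5 had 19 to 30 reads each over the 13 deep libraries.

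**Figure D2:**
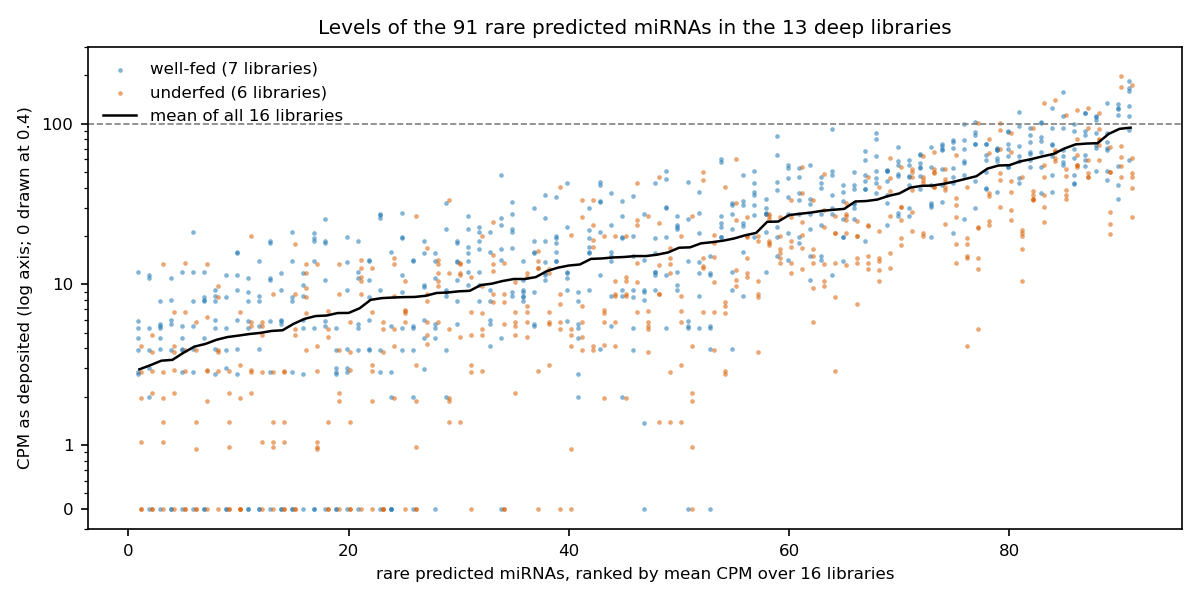
CPM as deposited of the 91 rare predicted miRNAs, ranked by their mean over 16 libraries (black line), in the 7 deep well-fed (blue) and 6 deep underfed libraries (orange). The axis is logarithmic with 0 drawn at 0.4, the dashed line is the limit of 100 CPM, and the lowest means, 2.96 to 3.75 CPM, belong to members with 0 reads in some of the deep libraries.

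Many of the rare members had no homologue, and no test was made of this. No homologue was named for 42 of the 91 rare members (46.2%), compared with 5 of the 76 predicted miRNAs at 100 CPM or more (6.58%). Of the 49 rare members with a homologue, 24 were classed by the TargetScan definition as highly conserved, 7 as conserved and 18 as poorly conserved, against 36, 13 and 22 of the more abundant predictions. The members with a homologue included miRNAs known from other tissues, such as those of muscle, epithelium and nerve cells described below. In the deposited values, 9 of the 91 members had reads in steps of 0.5 in at least 1 library, such as a read divided between 2 sequences gives. These were candidate-miR-39 (11 of 16 libraries), candidate-miR-112 (8), candidate-miR-32 and candidate-miR-44 (7 each), candidate-miR-191 (3), and candidate-miR-8, candidate-miR-75, candidate-miR-116 and candidate-miR-171 (1 each). The levels of the first 4 may therefore depend on how shared reads were divided.

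The spread between males of a diet was set against counting error. For each member, the variance of reads between libraries of a diet was divided by the variance that counting alone gives at these depths. In well-fed males the median ratio was 1.63, and in underfed males it was 2.31. The ratio rises with depth for the same relative spread, and underfed 2, 3, 4 and 7 were deeper than any well-fed library. The medians therefore do not compare the spread of the diets. The highest ratios among the members described here were 28.5 for candidate-miR-108 in underfed males, whose levels ran from 46.9 to 199 CPM, and 13 for candidate-miR-139, of which underfed 1 held 101 CPM and the other 5 at most 22.7 CPM. Candidate-miR-162 in well-fed males, with a ratio of 0.447, spread no more than counting gives.

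To ask whether the diet was related to the level of a rare miRNA, the deep libraries were compared after TMM scaling. Of the 91 members, 73 passed the filter of more than 5 CPM in at least 7 of the 13 libraries, and 18, with means of 2.96 to 8.35 CPM and 15 to 51 reads, did not and were not tested. DE (differential expression) required an FDR below 0.05 in limma and a fold change (FC, the ratio of mean CPM, underfed over well-fed) below 0.67 or above 1.5. Of the 73 tested members, 6 were DE (8.22%), all lower in underfed than in well-fed males, compared with 25 of all 247 tested miRNAs (10.1%), of which 21 were lower (8.5%) and 4 higher (1.62%). That none was higher rests on leaving out candidate-miR-83, which was DE and higher in underfed males (log2 fold change 1.42 ± 0.46 SE), with an FDR of 0.0401 and an FC of 2.03. Its levels overlapped between diets, from 7.83 over a median of 17 to 39.0 CPM in well-fed and from 15.7 over 32.7 to 102 CPM in underfed libraries. The share of the rare members was thus close to that of all miRNAs. An unadjusted p below 0.05 was found for 10 lower and 7 higher members, 23.3% in all, against 36.8% of all tested miRNAs. The standard error of the log2 fold change was larger for rare members, with a median of 0.42 compared with 0.25 for the more abundant predictions. Of the 73, 6 had more than 5 CPM in fewer than 3 of the 6 underfed libraries and passed the filter through the well-fed males. None of these 6 was DE in this fit.

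**Figure D3:**
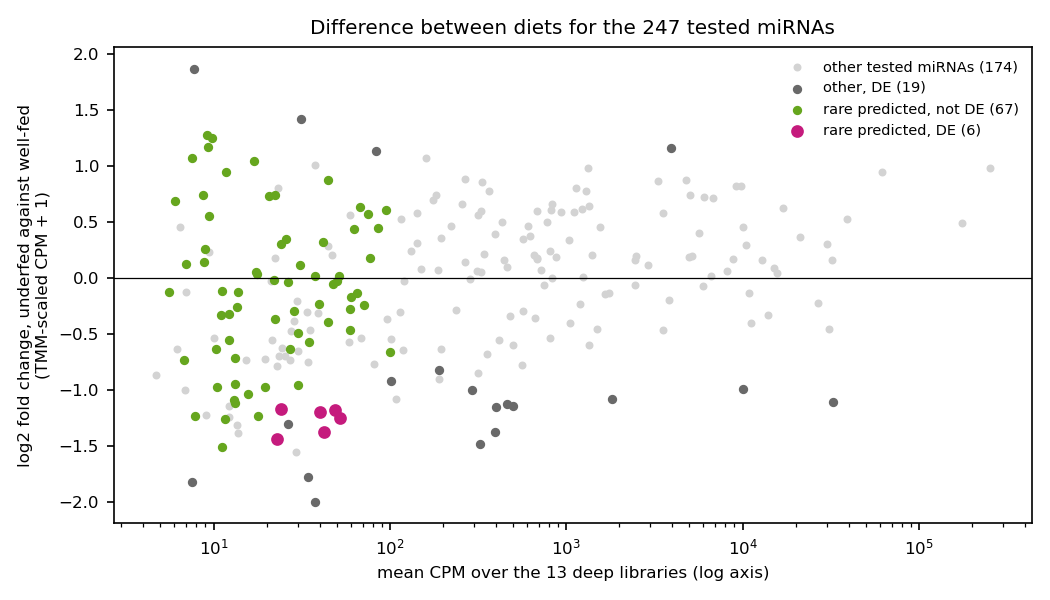
Log2 fold change between diets after TMM scaling, underfed against well-fed, for the 247 tested miRNAs against their mean CPM in the 13 deep libraries (log axis). The 6 DE rare members (magenta) had log2 fold changes of -1.44 to -1.16, and the 67 other rare members (green) spread around 0 from -1.51 to 1.28.

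Of the 6 DE members, 5 had no homologue, namely candidate-miR-32, candidate-miR-100, candidate-miR-172, candidate-miR-81 and candidate-miR-139. This was 5 of the 28 tested members without a homologue, against 1 of the 45 with one, and no test was made of it. The sixth, candidate-miR-96, is the homologue of miR-212-3p, a highly conserved miRNA that is transcribed together with miR-132 and is known from neurons, where the factor CREB induces it. All 6 were at 18.7 to 58.3 CPM on average over 16 libraries.

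Candidate-miR-32 had the lowest p of the rare members. Its level was 42.8 CPM in the lowest, 62.7 in the median and 118 in the highest well-fed library, and 10.5, 20.4 and 46.9 CPM in the underfed. Underfed 1 held the highest of the underfed values and lay above 2 of the well-fed, and the other 5 underfed libraries lay at 21.9 CPM or below. After TMM scaling no underfed library reached the lowest well-fed one, which held for 1 member and 4 of all tested miRNAs (1.62%). The log2 fold change was -1.18 ± 0.30 (SE), with an FDR of 0.0109 and an FC of 0.321. Its values came in steps of 0.5 reads in 7 of the 16 libraries, as given above.

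Candidate-miR-100 ran from 36.9 over a median of 51 to 88.1 CPM in well-fed libraries. In underfed libraries it ran from 10.5 over 14.2 to 40.2 CPM. Here too underfed 1 was the highest underfed library and the only one within the well-fed range. The log2 fold change was -1.19 ± 0.30 (SE), with an FDR of 0.0110 and an FC of 0.323. Candidate-miR-32 and candidate-miR-100 were the members that stayed below an FDR of 0.05 whichever of the 13 libraries was left out, with log2 fold changes of -1.30 to -1.06 and -1.32 to -1.09. With the 3 shallow libraries added, however, candidate-miR-32 was at -0.58, with an FDR of 0.463 where their zeros were kept and 0.331 where they were missing.

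Candidate-miR-172 was at 25.6, 58.7 and 99.4 CPM in the lowest, median and highest well-fed library. In underfed libraries it was at 4.16, 16.5 and 40.2 CPM, so that underfed 1 alone exceeded the lowest well-fed library. The log2 fold change was -1.37 ± 0.38 (SE), with an FDR of 0.0210 and an FC of 0.298. It kept an FDR below 0.05 in 12 of the 13 fits that left out a library.

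Candidate-miR-96 (miR-212-3p) was at 19.8, 35.9 and 51 CPM in well-fed and at 3.78, 9.62 and 20.1 CPM in underfed libraries. The ranges touched only where underfed 1 passed the lowest well-fed library. The log2 fold change was -1.16 ± 0.36 (SE), with an FDR of 0.0319 and an FC of 0.333. The FDR was below 0.05 in 6 of the 13 fits that left out a library.

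The last pair of DE members lay nearest to the FDR threshold. Candidate-miR-81 was at 19.6, 24 and 60.3 CPM in well-fed and at 2.77, 6.98 and 40.2 CPM in underfed libraries, with 7.78 CPM as the highest underfed value apart from underfed 1. Its log2 fold change was -1.44 ± 0.47 (SE), with an FDR of 0.0401 and an FC of 0.342. Candidate-miR-139 was at 30, 74.6 and 102 CPM in well-fed and at 5.25, 18.5 and 101 CPM in underfed libraries, where underfed 1 was nearly as high as the highest well-fed library. Its log2 fold change was -1.25 ± 0.42 (SE), with an FDR of 0.0466 and an FC of 0.417. Each of this pair kept an FDR below 0.05 in 3 of the 13 fits that left out a library, while the log2 fold changes stayed at -1.79 to -1.21 and -1.60 to -0.99. Without underfed 1, the FDR was 0.00188 and 0.00110 and the log2 fold change -1.79 and -1.60.

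**Figure D4:**
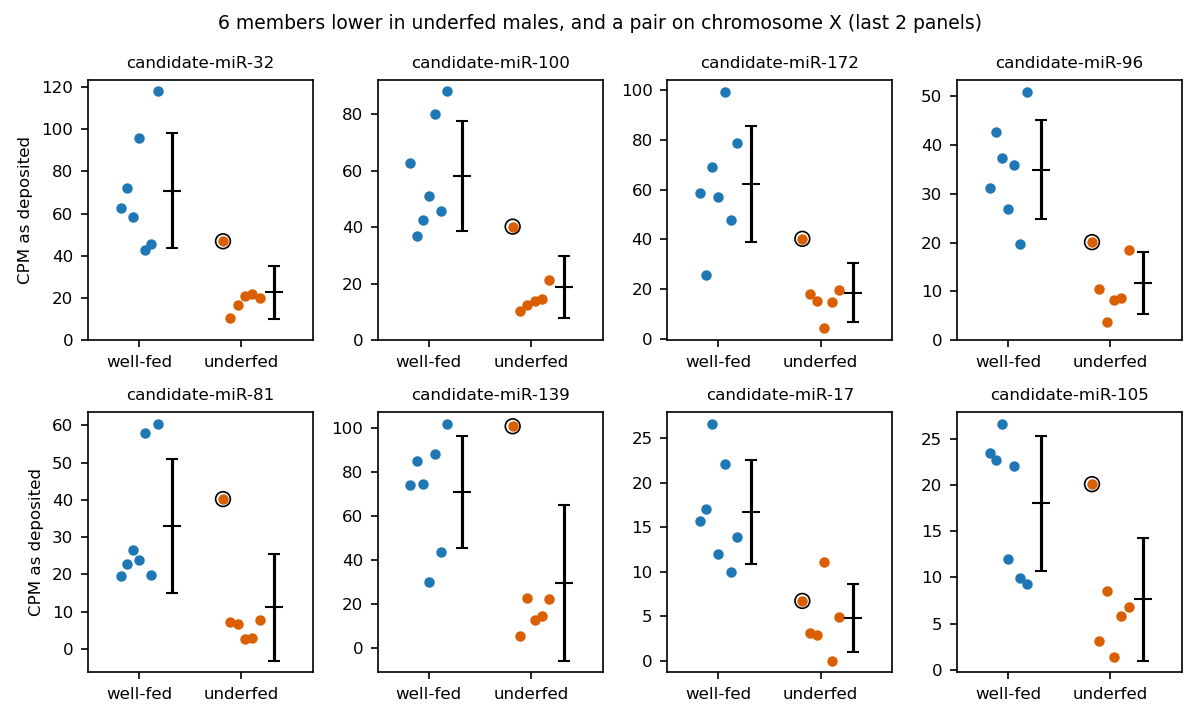
CPM as deposited in the 7 well-fed (blue) and 6 underfed (orange) deep libraries for the 6 DE members and, in the last 2 panels, for candidate-miR-17 and candidate-miR-105, which were not DE. Bars show the mean and SD, points stand in replicate order, and the ringed point is underfed 1, which is the highest underfed library in the panels of all 6 DE members.

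The number of DE members depended on the libraries used. Without underfed 1 there were 11 DE members, 10 lower and 1 higher, and 51 of 251 tested miRNAs (20.3%), and all 6 members named above were among the 11. The other 5 were candidate-miR-17, candidate-miR-46 (miR-490), candidate-miR-106 and candidate-miR-149 on the lower side, with log2 fold changes of -1.56, -1.43, -1.44 and -0.87, and candidate-miR-157 on the higher side, with 1.40. With all 13 libraries, candidate-miR-46 and candidate-miR-106 were at -1.03 (FDR 0.201) and -1.23 (FDR 0.0863), and the other 3 are given below. There were 3 DE members without well-fed 2, without well-fed 3, without underfed 3 and without underfed 5, and 2 without well-fed 8. With the 3 shallow libraries in the fit and their zeros kept as 0, limma called none of 71 tested members, with 6 at an unadjusted p below 0.05, and 8 of all 244 tested miRNAs (3.28%). The log2 fold changes of the 6 DE members were then -1.82 to -0.58, with FDR of 0.0996 to 0.463. With those zeros treated as missing, 3 of the 6 were DE, candidate-miR-100, candidate-miR-139 and candidate-miR-172. A second method on the 13 libraries, voom on recovered reads, gave 7 DE members, the same 6 and candidate-miR-17.

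The directions are relative to the other miRNAs of a library. TMM scaling put the median log2 fold change of the 247 tested miRNAs at -0.02 and that of the 73 members at -0.13. Unscaled CPM put these medians at -0.49 and -0.61 and gave 18 DE members, all lower, with 31.2% of all tested miRNAs DE. Scaling miRNAs and piRNAs together, as parts of one small RNA total, put the medians at 1.01 and 0.81 and gave 19 DE members, all higher, none of which was among the 6, with 31.6% of all tested miRNAs DE. Relative to that total the log2 fold changes of the 6 were -0.39 to -0.11, with FDR of 0.405 to 0.772. The scalings moved all tested miRNAs much alike, so members chosen for TMM-scaled values of -1.44 to -1.16 stayed below 0 under each of the 3. That is no further evidence for the 6, and on the joint scale none passed the test.

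**Figure D5:**
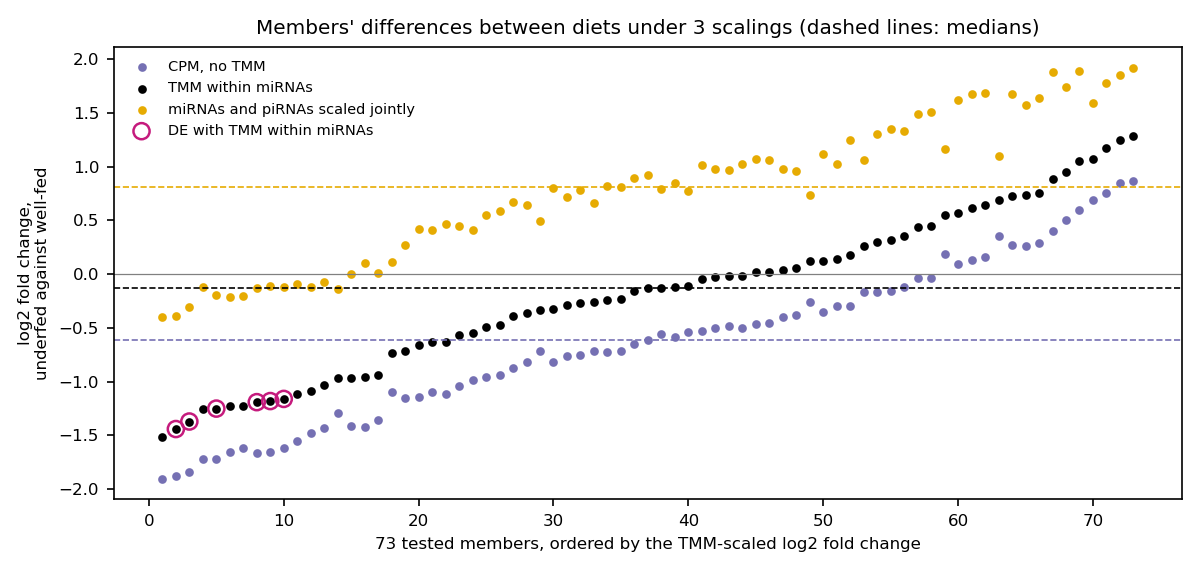
Log2 fold change between diets of the 73 tested members under 3 scalings, with members ordered by the TMM-scaled value and dashed lines at the medians, -0.61 for unscaled CPM, -0.13 for TMM within miRNAs and 0.81 for miRNAs and piRNAs together. The 6 DE members (magenta rings) lie below 0 in all 3, while most other members lie below 0 on unscaled CPM and above 0 on the joint scale.

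The tested members were also divided by homologue, as a description with no test. Of the 28 tested members without a homologue, 21 had a TMM-scaled log2 fold change below 0, with a median of -0.68. Of the 45 with a homologue, 23 were below 0, with a median of -0.02, which is the median of all tested miRNAs too. An unadjusted p below 0.05 was found for 7 lower and 1 higher of the former and for 3 lower and 6 higher of the latter. Without underfed 1 the medians were -0.71 and 0.15. On unscaled CPM they were -1.10 and -0.48, and on the joint scale 0.26 and 0.98. Each scaling moved both medians together, so that the order was kept, which is no further evidence for it, and the sign was not. The members without a homologue were also the rarer, with a median level of 15.3 CPM against 28.7 CPM, and the part of the level in these values was not tested. The filter could be met by the 7 well-fed libraries alone but not by the 6 underfed. The 6 members with more than 5 CPM in fewer than 3 underfed libraries are in these counts and medians. The part of the filter in these values was not tested either. The remaining 14 without a homologue and 4 with one were too rare to be tested. By class, the median was -0.02 for the 23 highly conserved, 0.12 for the 5 conserved and -0.24 for the 17 poorly conserved members tested.

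A pair of members without a homologue, candidate-miR-105 and candidate-miR-17, comes from neighbouring hairpins on the plus strand of the X chromosome, at X:84537948-84538004 and X:84538978-84539035 in the OAR3.1 assembly. The X chromosome is largely silenced in spermatocytes during meiosis, although many of its miRNAs are known to be transcribed there. Candidate-miR-17 was at 9.92, 15.7 and 26.6 CPM in the lowest, median and highest well-fed library and at 0, 4.01 and 11.1 CPM in the underfed. Its log2 fold change, -1.51 ± 0.52 (SE), was the lowest of the tested members, and its FDR was 0.0519. Candidate-miR-105 was at 9.27, 22.1 and 26.6 CPM in well-fed and at 1.39, 6.32 and 20.1 CPM in underfed libraries, with a log2 fold change of -0.94 ± 0.46 (SE) and an FDR of 0.139. Both had a lower mean CPM in underfed than in well-fed libraries but neither was DE in this fit, and on the joint scale the values were -0.40 and 0.01. The authors' own comparison of all the males, by another method (edgeR), met the FDR and FC limits for candidate-miR-17 and not for candidate-miR-105. Candidate-miR-17 was DE without TMM (FDR 0.0114), with a pseudocount of 5 (0.0350), with voom (0.0343), without underfed 1 (0.0273) and without underfed 4 (0.0230), and candidate-miR-105 was DE without TMM (FDR 0.0391). They had 55 and 63 reads over the 13 libraries.

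The miR-105/miR-767 group lies on the same chromosome, with candidate-miR-123 (miR-105b), candidate-miR-149 (miR-767) and candidate-miR-122 (miR-105) at X:78722115-78722173, X:78723038-78723094 and X:78724306-78724365. These miRNAs are hosted in an X-linked GABA receptor gene in other mammals and are known from germ cells and tumours. Although the 3 hairpins lie side by side, their levels differed, with means over 16 libraries of 8.90, 94.4 and 14.8 CPM. The 3 had log2 fold changes of -0.33, -0.66 and -0.13, with FDR of 0.736, 0.117 and 0.901, and none was DE. Candidate-miR-149 was at 59.5, 128 and 184 CPM in well-fed and at 26.2, 48.1 and 174 CPM in underfed libraries. The highest underfed value was that of underfed 1, without which the FDR was 0.0139 and the log2 fold change -0.87. On the joint scale all 3 were above 0, at 0.49, 0.42 and 0.79.

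Members of 3 other X-linked groups were not DE either. The miR-106a/miR-363 group, a paralogue of the cell-cycle-related miR-17/miR-92 group, holds candidate-miR-104 (named as a miR-18 passenger strand), candidate-miR-44 (miR-20b) and candidate-miR-14 (miR-363), with log2 fold changes of 1.07, -0.02 and -0.16 and FDR of 0.157, 0.966 and 0.673. Candidate-miR-84, the passenger strand of miR-503, was at -0.02 (FDR 0.971) and candidate-miR-56, homologue of miR-188, at -0.32 (FDR 0.746). Of these 5, the 4 below 0 were above 0 on the joint scale. Members of autosomal groups were candidate-miR-171 (miR-19a, of the miR-17/miR-92 group on chromosome 10) at 0.73 (FDR 0.329) and candidate-miR-99 (miR-365, with miR-193b on chromosome 24) at 0.45 (FDR 0.224), the latter at -0.04 on unscaled CPM. On the joint scale candidate-miR-104, candidate-miR-171 and candidate-miR-99 were DE and higher, at 1.59 (FDR 0.00752), 1.67 (FDR 0.0385) and 1.51 (FDR 0.00879).

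The tested members with the lowest p on the higher side did not pass the FDR. Candidate-miR-146, homologue of miR-190b, was at 19.6, 32 and 71.4 CPM in well-fed and at 40.2, 49.8 and 67.1 CPM in underfed libraries, with a log2 fold change of 0.88 ± 0.34 (SE) and an FDR of 0.0762. The ranges overlapped, but the lowest underfed library was above the median of the well-fed. Without underfed 1 the log2 fold change was 1.05 and the FDR 0.0130, with an FC too near 1 for DE. Candidate-miR-89 (miR-505) was at 42.0, 61.5 and 99.4 CPM in well-fed and at 54.0, 59.9 and 121 CPM in underfed libraries, with a log2 fold change of 0.64 ± 0.26 (SE) and an FDR of 0.0887. Candidate-miR-74 (miR-328) and candidate-miR-184, which has no homologue, had log2 fold changes of 0.57 (FDR 0.121) and 1.17 (FDR 0.130). On the joint scale these 4 had log2 fold changes of 1.88, 1.68, 1.62 and 1.78, with FDR of 0.00314, 0.00100, 0.000753 and 0.00627, and were DE.

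Several rare members are homologues of miRNAs that were listed as markers of muscle, epithelial or neural cells. Which cells of the testis held them was not measured. Of the muscle miRNAs, candidate-miR-157 (miR-1) was at 3.92, 9.27 and 35.7 CPM in well-fed and at 6.71, 18.5 and 42.9 CPM in underfed libraries. Candidate-miR-191 (miR-133) was at 4.14, 7.83 and 21.3 CPM in well-fed and at 7.78, 12.7 and 24.6 CPM in underfed libraries. Their log2 fold changes were 1.05 (FDR 0.168) and 0.95 (FDR 0.108), and their summed level ran from 11.7 to 51.6 CPM in well-fed and from 20.1 to 58.2 CPM in underfed libraries. Neither was at 0 in any of the 13 libraries and neither was DE. Without underfed 1, candidate-miR-157 was DE and higher, at 1.40 (FDR 0.0255), and on the joint scale both were, at 1.89 (FDR 0.0163) and 1.74 (FDR 0.00786). The known oar-miR-133, outside this set and named after its values were seen, was far more abundant, at 569 CPM, with a log2 fold change of 0.35 and an FDR of 0.184.

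The epithelial markers among the rare members were candidate-miR-95 (miR-141), candidate-miR-98 (miR-429) and candidate-miR-115 (miR-183), the first 2 of which belong to the miR-200 family that keeps ZEB factors low in epithelia. None was DE, and the log2 fold changes were 1.25 (FDR 0.133), 1.28 (FDR 0.0837) and 0.06 (FDR 0.965). On the joint scale the first 2 were DE and higher, at 1.85 (FDR 0.00936) and 1.92 (FDR 0.00314). Of the known miRNAs of the family, named after their values were seen, oar-miR-200b was DE and higher in underfed males, at 7.77 CPM on average, with a log2 fold change of 1.87 and an FDR of 0.0466, and oar-miR-200a was at 0.80 (FDR 0.157). Candidate-miR-98 was at 1.98, 5.33 and 9.01 CPM in well-fed and at 3.89, 6.59 and 33.5 CPM in underfed libraries. Underfed 1 and underfed 4, at 33.5 and 26.3 CPM, held its high values, and the other 4 underfed libraries lay within the well-fed range. Candidate-miR-95 was at 0 in well-fed 8. With the more abundant candidate-miR-29 (miR-31), the summed level of the 4 epithelial markers ran from 677 to 1220 CPM in well-fed and from 513 to 1110 CPM in underfed libraries.

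The neural and neuroendocrine list had the most rare members, 6, of which 5 were tested. Besides candidate-miR-96, which was DE, candidate-miR-8 (named for miR-129a) was at 8.52, 21.3 and 32.4 CPM in well-fed and at 2.10, 5.69 and 10.4 CPM in underfed libraries, with a log2 fold change of -1.11 ± 0.41 (SE) and an FDR of 0.0667. Candidate-miR-28 (miR-138) was at 11.4, 35.9 and 92.7 CPM in well-fed and at 2.91, 17.2 and 26.8 CPM in underfed libraries, with a log2 fold change of -0.96 ± 0.46 (SE) and an FDR of 0.139. Candidate-miR-156 (miR-7a) and candidate-miR-75 (miR-129) had values of -0.39 (FDR 0.488) and 0.55 (FDR 0.545). Over all 7 listed markers, candidate-miR-96 among them, the more abundant candidate-miR-138 (miR-9) held most reads. Their summed level on the deposited CPM ran from 616 to 846 CPM in well-fed and from 204 to 443 CPM in underfed libraries. Without scaling, miRNAs in general lay lower in underfed males, at a median of -0.49. On the deposited CPM 14 of the 247 tested had every underfed library below every well-fed one. After TMM scaling candidate-miR-138 was at -0.55 (FDR 0.0852) and was not DE. The part of the summed level in the result for candidate-miR-96 was not tested. Among the rare members the list held 4 members below and 1 above 0, with a median of -0.96 against -0.13 over all tested members, and on the joint scale candidate-miR-28 and candidate-miR-156 were above 0, at 0.10 and 0.67. Candidate-miR-78 (miR-873) was not tested, with 0 to 4.16 CPM in underfed and 2.76 to 12.0 CPM in well-fed libraries.

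Homologues of other families were spread over both sides. Candidate-miR-162, a miR-34 family member, was at 39.2, 54.0 and 64.9 CPM in well-fed and at 20.1, 43.6 and 63.3 CPM in underfed libraries, with a log2 fold change of -0.05 ± 0.33 (SE) and an FDR of 0.935. The family, which serves germ cells and ciliated cells, is mostly made up of abundant members. Its summed level on the deposited CPM ran from 47600 to 71100 CPM in well-fed and from 11000 to 44600 CPM in underfed libraries. Candidate-miR-112 (miR-196, hosted in Hox clusters) was at 0.26 (FDR 0.692), or -0.17 on unscaled CPM, candidate-miR-39 (miR-215) at -0.47 (FDR 0.273), and candidate-miR-108 (miR-195) at 0.61 (FDR 0.294), or 0.90 (FDR 0.0489) without underfed 1. Candidate-miR-131 was not tested, with 0 to 11 CPM in well-fed and 0 to 6.71 CPM in underfed libraries.

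No rare member belonged to the leukocyte and erythroid lists, whose summed levels ran from 13600 to 23500 and from 2340 to 7830 CPM in well-fed and from 13500 to 29500 and from 1370 to 8550 CPM in underfed libraries. The miR-224/miR-452, miR-296 and miR-507/miR-508 groups likewise held no rare member.

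One member outside the groups above is named after its values were seen. Candidate-miR-128, homologue of miR-338, a miRNA known from oligodendrocytes, was the only tested member whose underfed libraries all lay below the well-fed on the deposited CPM, at 7.55 to 24.9 against 25.6 to 49.7 CPM. This held for 14 of all tested miRNAs (5.67%). After TMM scaling the ranges overlapped, the log2 fold change was -0.63 ± 0.31 (SE), the FDR was 0.150, and on the joint scale the value was 0.41.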

How the data were processed

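Small RNA libraries from the testes of 8 well-fed and 8 underfed Merino males were analysed from 16 deposited tables, one a library. The authors kept reads of 18 to 25 nt that matched known miRNAs or miRNAs predicted by miRDeep2 from all libraries pooled, on the OAR3.1 assembly, with base calling by CASAVA 1.8 per the submitters' processing notes. The deposited values are CPM, scaled by the authors to 1000000 within miRNAs and within piRNAs separately. How a read that matched several miRNAs was counted is not given in the sources used here. Reads were recovered by dividing by the value of 1 read, and 93.7% to 99.0% of low miRNA values came out whole within 0.1 reads and 100% as multiples of 0.5. PCR reads are not independent molecules, so depths and variance ratios cover counting error only.

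Libraries with more than 100000 miRNA reads (7 well-fed, 6 underfed) were fitted. The tests covered miRNAs that exceeded 5 CPM in 7 or more of these 13 libraries and were made with limma 3.58.1 (R 4.3.3, trended empirical Bayes) on log2(TMM-scaled CPM + 1), trimming 30% of log ratios and 5% of levels. A fold change on this scale understates the change of low miRNAs. P-values were adjusted by Benjamini-Hochberg over all 247 tested miRNAs. DE required an FDR under 0.05 and an FC under 0.67 or above 1.5. The pipeline was tested on simulated data. Named members were those that were DE, the 8 with the lowest p in each direction, the 3 nearest to the limit of 100 CPM on each side, the 5 lowest, and those in fixed lists of clusters, families and cell type markers. Alternatives changed the libraries, scaling, pseudocount, filter, method and replicate block. The members and lists were chosen with earlier results of these data known. Homologue names, conservation classes and hairpin positions are those assigned by the authors.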

Additional observations from a re-analysis of the deposited data

Results flagged for a closer look

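In 12 of 80 sets of values (40 members in the well-fed and the underfed deep libraries), 1 library stood further from its neighbour than Dixon's 95% limit allows. Chance gives about 1 in 20. In 10 of the 12 the library was underfed 1, each time the highest of the underfed. The values are deposited CPM without TMM scaling. The scaling factor of underfed 1 was 1.25, against 0.695 to 0.855 in the other deep underfed libraries, and its part in the flags was not tested. Underfed 1 held 46.9 CPM of candidate-miR-32, 40.2 of candidate-miR-100, 40.2 of candidate-miR-81 and 101 of candidate-miR-139, which were DE. It also held 174 CPM of candidate-miR-149, 33.5 of candidate-miR-123, 141 of candidate-miR-74, 26.8 of candidate-miR-75, 16.8 of candidate-miR-112 and 13.4 of candidate-miR-155. These values rest on 2 to 26 reads, since 1 read is worth 6.71 CPM in this library. The other cases were well-fed 3 with 42.6 CPM of candidate-miR-115 and well-fed 4 with 12.0 CPM of candidate-miR-78.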

How the results depend on the processing

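Against 6 DE members and 25 DE miRNAs in all, the counts were 0 and 8 with all 16 libraries and zeros kept, 3 and 16 with the zeros of the shallow libraries missing, 18 and 77 without TMM, and 19 and 78 on the joint scale of miRNAs and piRNAs. FDR alone, and FC from TMM-scaled CPM, left the members at 6 and gave 42 in all. Pseudocounts of 0.5 and 5, no filter, and voom gave 5, 7, 6 and 7 members. Leaving out 1 library gave 2 to 11 members and 13 to 51 in all. The cause of these differences was not tested. With the replicate number as a block, on 5 complete pairs, limma called 0 members, with 12 at an unadjusted p below 0.05, and 5 miRNAs in all. The 6 DE members were then at -1.15 to -0.82, with FDR of 0.0646 to 0.269. The numbers were not taken to pair the males, since the labels give no link between same-numbered males. The correlation of same-numbered deviations was over 0.1 in 2 of 5 pairs. Its mean was 0.093, against -0.014 for different numbers, and so few pairs cannot settle whether the males were paired. The count test planned on recovered reads was not run, because reads came in steps of 0.5.

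The median log2 fold change of the tested members moved from -0.13 to 0.81 on the joint scale. On that scale values turned above 0 for candidate-miR-105 (0.01), candidate-miR-122 (0.79), candidate-miR-123 (0.49), candidate-miR-14 (0.89), candidate-miR-149 (0.42), candidate-miR-156 (0.67), candidate-miR-162 (1.01), candidate-miR-28 (0.10), candidate-miR-39 (0.59), candidate-miR-44 (1.02), candidate-miR-56 (0.80) and candidate-miR-84 (0.97). Without TMM they turned for candidate-miR-112 (-0.17), candidate-miR-115 (-0.38) and candidate-miR-99 (-0.04). With all 16 libraries and zeros kept they turned for candidate-miR-28 (0.02), candidate-miR-74 (-1.01), candidate-miR-75 (-0.75) and candidate-miR-84 (0.13, and 0.15 with zeros missing). Voom turned candidate-miR-115 (-0.05), candidate-miR-162 (0.03), candidate-miR-56 (0.17) and candidate-miR-84 (0.06), and the block candidate-miR-84 (0.12). Leaving out 1 library turned values near 0, which then ran from -0.24 to 0.51 for candidate-miR-115, -0.48 to 0.19 for candidate-miR-122, -0.22 to 0.23 for candidate-miR-162, -0.13 to 0.06 for candidate-miR-44, -0.58 to 0.32 for candidate-miR-56 and -0.24 to 0.11 for candidate-miR-84.

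Depth limits the rarest members most. The 18 that failed the filter, with 15 to 51 reads over 13 libraries, were not compared between diets, and 1 read is worth up to 6.71 CPM in a deep library.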
